A study of Caenorhabditis elegans with 4 samples.

Results

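The right arm of chromosome V was described from 371 sites of T09A5.8, of the 3117 sites found in the whole series. Peaks of 2 ChIP-seq replicates were merged where they overlapped, and a merged span counted as a site if each replicate had at least 1 peak in it. The members were the sites on V with a midpoint beyond 13949348, where the middle part of the chromosome ends, and up to 20424022 on genome build WS220. This interval is the last of 3 equal parts of the chromosome without its terminal 500 kb. It is 6.47 Mb long, and it held 59.1% of the 628 sites on V on 30.9% of the length of that chromosome. The rule used position only, so the number, width and score of the sites were not fixed by it, although the arm was picked with earlier results of these data known.

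The peaks come from 2 T09A5.8 ChIP libraries. The study also has 2 input samples, whose values were not used here. All 4 came from Caenorhabditis elegans hermaphrodites of genotype fem-2(b245)III kept at 20 °C, so the fem-2 mutation was shared by ChIP and input and its effect cannot be seen. The stage was labelled as a young adult with a germline, while the growth protocol describes gravid adults recovered from synchronised cultures. Chromatin was made from whole animals, so no peak can be assigned to a tissue. Whether the replicates were separate cultures is not in the labels, so the spread between them may be technical. Each peak carried a position and a score that the authors deposited without a definition. The lists hold no read counts, and the depth of the libraries is unknown.

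T09A5.8 is the chromodomain protein CEC-3 (gene symbol cec-3), and its chromodomain binds histone H3 methylated at lysine 9, a mark of silent chromatin. In this worm the mark is gathered on the chromosome arms, which are rich in repeats and recombine more often than the centres, and a related chromodomain protein, CEC-4, tethers such chromatin to the nuclear envelope in embryos. Chromosome V is known for its large nematode families of chemoreceptor genes, many of them in clusters of recent copies. fem-2 encodes a protein phosphatase that promotes male fates in the sex determination pathway. No annotation or genome of the build of the peaks was used, so the sites below are given by coordinates without genes or sequence.

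Both replicates placed T09A5.8 on nearly the same length of the arm. Replicate 1 had 472 peaks over 28.9% of the bases and replicate 2 had 481 peaks over 28.8%, a mean of 476.5 ± 6.36 peaks and 28.9% ± 0.0674 (SD, n = 2). The sites covered 28.2% of the arm, or 1.83 Mb, and 1.61 Mb lay in peaks of both replicates. Of the peak bases on the arm, 86.0% in replicate 1 and 86.2% in replicate 2 were also in a peak of the other. By peaks, 421 of 472 in replicate 1 (89.2%, with 90.8% over the whole list) and 420 of 481 in replicate 2 (87.3%, with 83.8% over the whole list) overlapped one of the other replicate. Both shares lay near those of the whole lists.

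The sites were crowded on the outer side of the interval, but they thinned again near its outer bound. With the interval cut into 4 equal parts from the centre side outward, the parts held 30, 52, 132 and 157 sites. Replicate 1 had 7.57%, 17.8%, 46.5% and 43.9% of the bases of the 4 parts in peaks, and replicate 2 had 7.79%, 14.2%, 46.6% and 46.8%. The outer 2 parts thus differed little from each other, and each exceeded the part just inside them in both replicates. The change fell within a short distance. In windows of 250 kb, the one from 16199349 to 16449348 held 4 sites and was covered by 3.92% and 4.65% in replicates 1 and 2. The next held 10 sites and was covered by 20.6% and 17.8%. The one after it, from 16699349 to 16949348, held 23 sites and was covered by 58.5% and 46.6%. Coverage then fell again, to 18.3% and 8.19% in the window from 16949349 to 17199348, which held 4 sites. It also fell toward the outer bound. The windows that start at 19699349, 19949349 and 20199349 held 28, 18 and 12 sites, the last of them cut short at 224674 bp. Coverage in them was 61.9%, 39.2% and 26.1% in replicate 1 and 54.4%, 37.4% and 28.7% in replicate 2. Outward of 16449349, an edge chosen after the values were seen, lay 325 of the 371 sites at 81.8 per Mb, and inward of it lay 46 sites at 18.4 per Mb. Peaks covered 42.6% ± 0.0934 of the outer side and 7.10% ± 0.0261 of the inner side (SD, n = 2).

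**Figure D1:**
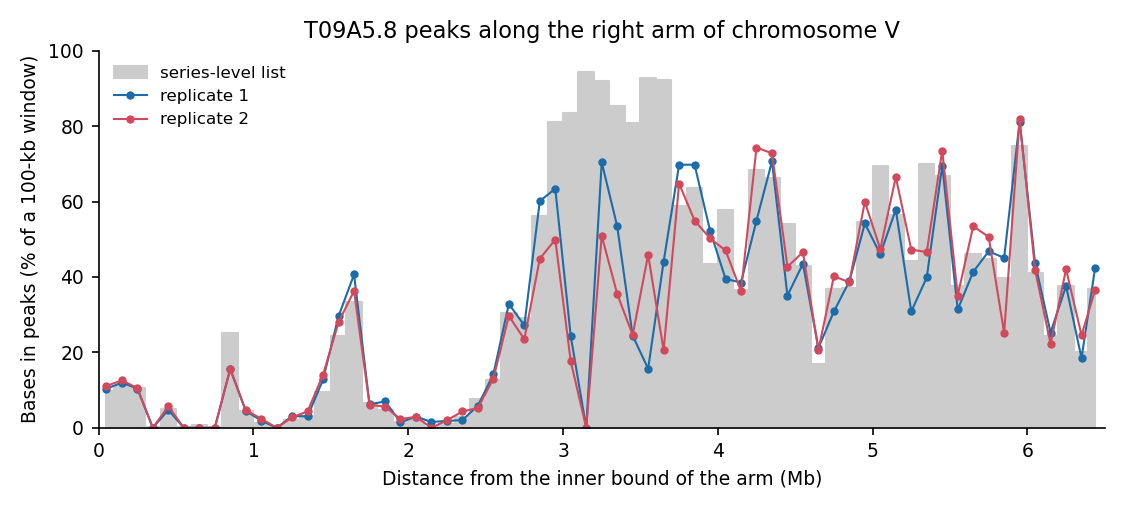
Percent of bases in peaks (y axis) in windows of 100 kb along the right arm of chromosome V, by distance from the inner bound of the arm in Mb (x axis), for replicate 1 and replicate 2 (points joined by lines) and the series-level list (grey). Coverage in the replicates is low on the inner side apart from a rise at about 1.6 Mb, and the series-level list stands far above both replicates in a stretch that starts 2.88 Mb from the inner bound.

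The sparse inner side was not empty. Its 46 sites inward of 16449349 had median highest scores of 712 in replicate 1 and 634 in replicate 2, and the 325 sites outward of it had 591 and 895, so the replicates gave opposite orders. The 30 sites of the innermost part had a median width of 3283 bp and median highest scores of 739 in replicate 1 and 1091 in replicate 2, against 2996 bp, 475 and 771 for the 157 sites of the outermost part. A small island stood out between 15449349 and 15699348, where 15 sites covered 30.5% of the 250 kb. It held a site of 17536 bp at 15547114 to 15564649, which scored 2534 in replicate 1 and 3100 in replicate 2, and the narrower site at 15578720 to 15583345, which scored 3141 and 3100. Away from the island, a site at 14197316 to 14206594 scored 3100 in both replicates and had the third highest series-level score of the arm, 104. Its next neighbour outward lay 151995 bp away.

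The widest stretches between neighbouring sites also lay mostly on the inner side. The 5 widest were 347015 bp from 14444391 to 14791405, 258324 bp from 15769253 to 16027576, 197076 bp from 16030585 to 16227660, 158803 bp from 17037700 to 17196502 and 151995 bp from 14206595 to 14358589. In the first and the last of these neither replicate had a peak, and the series-level list covered 3.56% and 1.02% of them. The exception was the stretch from 17037700 to 17196502, which lay on the crowded side. Series-level peaks covered 93.4% of it, while peaks covered 11.7% in replicate 1 and 0% in replicate 2. Over the whole arm, the median gap between sites was 2325 bp and 117 of the 370 gaps were of at most 1000 bp. The median gap was 2535.5 bp on the right arm of I, 3195.5 bp on the left arm of IV and 3317 bp on the left arm of III. On the other autosome arms it was at least 3909 bp. When sites within 5 kb of a neighbour were joined, 176 sites (47.4%) fell into 21 groups of 5 or more, and 62 sites stood alone. The counts of close gaps and of grouped sites over the whole series are not given here, so neither is read as a trait of the arm.

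The longest of these groups ran from 19868079 to 19988426 and held 4 of the 10 sites of the arm with the highest series-level scores. Its 9 sites filled 95.9% of 120348 bp, and peaks covered 93.1% of it in replicate 1 and 93.4% in replicate 2. The site at 19896417 to 19907991 (11575 bp) scored 3100 in both replicates and had the highest series-level score of the arm, 123. Its neighbours at 19908546 to 19927414 (18869 bp) and 19935057 to 19946242 (11186 bp) also scored 3100 in both, with series-level scores of 92.9 and 85.3. The site at 19876902 to 19895830 (18929 bp) scored 1133 in replicate 1 and 3100 in replicate 2, with a series-level score of 99.05. The widest member, 29012 bp at 19947495 to 19976506, scored only 660 and 740 in replicates 1 and 2 and 49.4 in the series-level list. A wide site beside top-scoring ones could thus have a middling score, and the edges of this one still matched closely, since 97.6% of its bases were in peaks of both replicates.

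Sites on the arm were wider than in the series as a whole. Their widths ran from 998 to 41199 bp with a median of 3185 bp, beside a median of 2620 bp over all 3117 sites. Sites wider than 10 kb numbered 41 of 371, or 11.1%, compared with 7.64% of all sites, and they held 37.6% of the site bases of the arm. The 103 sites of up to 2 kb held 8.32% of the bases. Of the 41 wide sites, 39 lay outward of 16449349, where 325 of all 371 sites (87.6%) also lay. Wide sites made up 12% of the sites outward of this edge and 4.35% of those inward of it. The inner share rests on only 2 of 46 sites, and the difference was not tested. The 10 widest were 18929 to 41199 bp wide, and 8 of them were among the 20 widest of the genome.

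The widest site, at 17217735 to 17258933, was made of 3 peaks in each replicate and scored 3100 in both, and 98.9% of its bases were in peaks of both. The second, 30838 bp at 19402380 to 19433217, also held 3 peaks of each replicate and scored 3100 in both. The third, 30626 bp at 17613368 to 17643993, differed sharply between the libraries. It was 1 peak of 30626 bp with a score of 270 in replicate 1 but 1 peak of 1139 bp with a score of 112 in replicate 2, so 3.72% of its bases were in peaks of both. Series-level peaks covered 95.3% of it. Sites of 24382 bp at 17970163 to 17994544 and 22409 bp at 18293529 to 18315937 scored 3100 in both replicates, whereas one of 23696 bp at 17396952 to 17420647 scored 3100 in replicate 1 and 2174 in replicate 2. The sites at 18432291 to 18458076 (25786 bp) and 18861920 to 18885036 (23117 bp), also among the 10 widest, had matching edges but unlike scores, which are given with the other scores.

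**Figure D2:**
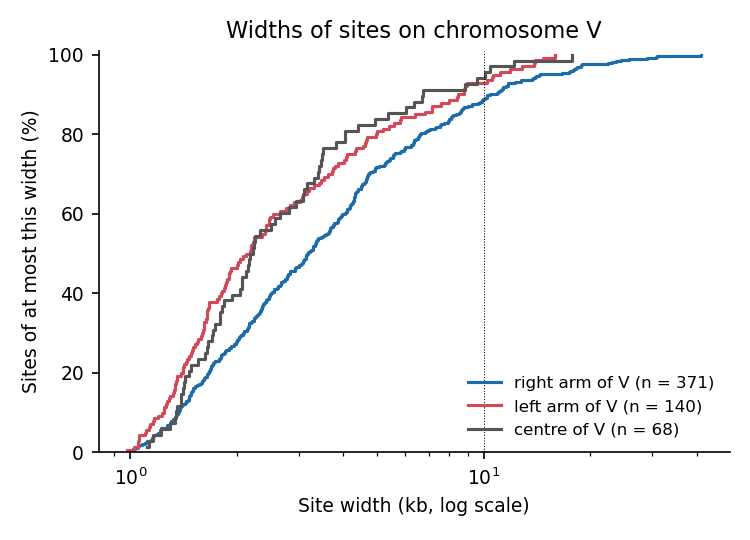
Cumulative percent of sites (y axis) by width in kb on a log scale (x axis) for the right arm (371 sites), the left arm (140) and the centre (68) of chromosome V, with a dotted line at 10 kb. The curve of the right arm lies to the right of the others over most of the range, where the median site was 3185 bp wide, with 2155 bp on the left arm and 2200 bp in the centre.

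Scores on the arm spanned most of the range of the lists. The highest score per site ran from 56.7 to 3222 in replicate 1 and from 53.8 to 3153 in replicate 2, with medians of 615 and 879, beside 465 and 717 over all sites. Many sites tied at 3100, where the scores of the lists pile up. Of the 371 sites, 38 (10.2%) scored 3100 or more in both replicates, while 13.1% of all sites did, so the arm was not richer in top-scoring sites. These 38 had a median width of 8075 bp, against 2832 bp for the other 333 sites. At the other end, 10 sites scored under 100 in both replicates, with a median width of 1081 bp.

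The replicates ordered the sites alike. Across the 371 sites, which share libraries and neighbourhoods and are not independent, the highest scores had a Spearman rho of 0.855 and a Pearson r of 0.844, given as descriptions without a p. Over all 3117 sites both were slightly higher, with a rho of 0.879 and an r of 0.885. Width and score went together within each list, with a rho of 0.806 in replicate 1 and 0.803 in replicate 2. When each score was turned into a percentile of its own list, the median site differed by 6.99 points between replicates, and 32 sites (8.63%, beside 8.37% of all sites) differed by over 25 points. For the 297 sites made of 1 peak in each replicate, the starts differed by a median of 81 bp and the ends by 91 bp, and both edges lay within 200 bp in 166 of them (55.9%, beside 58.9% over all such sites, whose median offsets were 84 and 87 bp).

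Some wide sites had matching edges and unlike scores. The site at 18861920 to 18885036 scored 199 in replicate 1 and 2840 in replicate 2, although 96.4% of its bases were in peaks of both. The site at 18432291 to 18458076 scored 1383 and 328, with 98.5% of its bases in both. The largest difference in percentile among the wide sites was at 20299474 to 20310346 (10873 bp), with scores of 65.0 and 1738 and 97.1% of its bases in both, a site singled out after its values were seen. In all, 5 of the 41 wide sites (12.2%, beside 10.5% of all 238 wide sites of the series) and 27 of the 330 others differed by over 25 points, and 4 wide sites scored under 1000 in both replicates. At these 3 wide sites the span was shared by the replicates and the score was not.

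**Figure D3:**
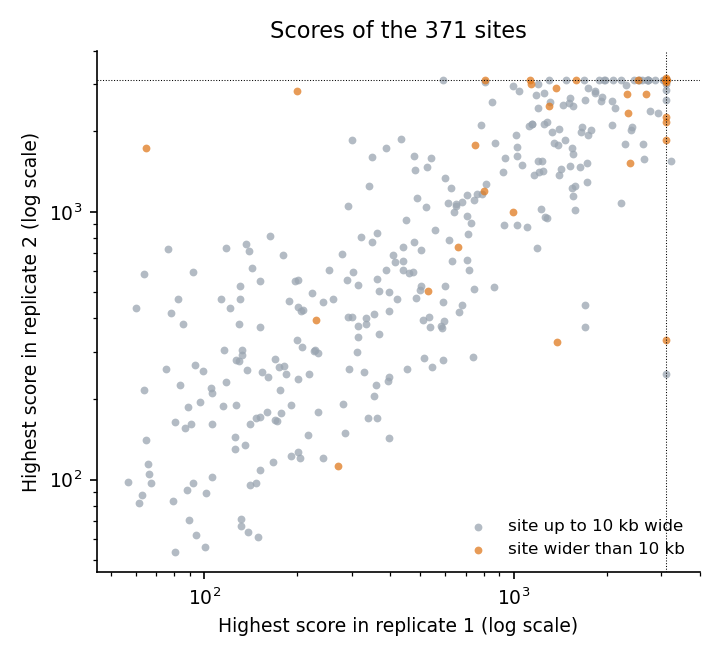
Highest score in replicate 2 (y axis) against that in replicate 1 (x axis) for each of the 371 sites, on log scales, with sites wider than 10 kb in orange and dotted lines at 3100. Most points follow the diagonal (Spearman rho 0.855), 38 sites lie at or above 3100 in both, and a few wide sites lie far from the diagonal.

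The 10 sites ranked first by mean percentile over the replicates all scored 3100 or more in both. The first was 17200694 to 17214420 (13727 bp), with 3100 in replicate 1 and 3153 in replicate 2. The next were 15578720 to 15583345, described above, and 19977403 to 19985384 (7982 bp), with 3110 and 3100. The other 7, tied at 3100 in both and ordered by width, were the sites described above at 17217735, 19402380, 17970163, 18293529 and 19908546, followed by 16769178 to 16787565 (18388 bp) and 20406662 to 20424931 (18270 bp). The last of these was also the outermost member. The order within the ties carries no information about binding.

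The ranking by series-level score gave a different set, with 3 sites shared with the ranking by percentile and 2 with that by width. A single site was in all 3, at 17970163 to 17994544. The series-level scores of the first 10 ran from 73.5 to 123, beside a median of 19.03 over the sites of the arm. After the site at 19896417 came the outermost member at 20406662 with 117 and the inner site at 14197316 with 104. Sites at 16749181 to 16757348 (8168 bp) and 16759315 to 16766891 (7577 bp) scored 84.35 and 75.55, and one at 19046390 to 19056778 (10389 bp) scored 73.5. The sites at 16749181, 16759315 and 16769178 belonged to a group of 8 sites from 16730343 to 16795790, near the inner edge of the crowded side. A single member, at 18565329 to 18567105 with replicate scores of 63.0 and 87.4, overlapped no series-level peak, as did 5 of all 3117 sites (0.16%).

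The bounds of the interval cut through no dense cluster on the inner side. The site just inside the inner bound was 13958647 to 13960650 (2004 bp), with scores of 121 and 436 in replicates 1 and 2, and the site just outside it was 13787882 to 13790963 (3082 bp), with 2908 and 3100. At the outer bound, the site just inside was 20406662 to 20424931, and the site just outside began at 20427648, was 2639 bp wide and scored 736 and 1274. The crowding thus went on past the outer bound, where the terminal 500 kb held 36 further sites.

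The series-level list, called with MACS v2, described the same arm with narrower peaks and a larger covered length. It held 2072 peaks on the arm with a median width of 441.5 bp, which covered 36.1% of the bases. Of these peaks, 1079 (52.1%, beside 53.8% in the whole list) overlapped both replicates. Another 178 (8.59%, beside 6.82%) overlapped replicate 1 and not 2, and 219 (10.6%, beside 12.6%) overlapped replicate 2 and not 1. The other 596 (28.8%, beside 26.8% in the whole list) overlapped neither. Median series-level scores were 11.3 for peaks in both, 6.38 for those in a single replicate and 5.68 for those in neither. These shares were not tested, since the libraries behind the series-level list are not stated and it may not be independent of the replicates.

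Most of the added length came from 1 stretch of long runs. The arm held 13.8% of all series-level peaks on 6.46% of the genome length. With gaps of at most 500 bp between series-level peaks closed, 15 of the 28 runs longer than 30 kb in the genome lay on the arm. With gaps of at most 200 bp closed, 4 were left on the arm, and the genome total at that setting is not given. At 500 bp, 12 of the 15 followed one another from 16833214 to 17646009. In this stretch of 813 kb, series-level peaks covered 87.8% of the bases, but replicate peaks covered 37.8% in replicate 1 and 30.2% in replicate 2. In the rest of the arm the lists gave nearly the same length, with 28.7% in the series-level list, 27.7% in replicate 1 and 28.7% in replicate 2. The stretch made up 12.6% of the arm and held 62.9% of the 0.613 Mb that lay in series-level peaks and in no replicate peak. The series-level peaks there that overlapped neither replicate had a median score of 17.4 (139 of 300 peaks), against 5.01 in the rest of the arm. The 88 peaks of the stretch that overlapped both had a lower median, 14.1, the opposite of the order over the whole arm. Series-level peaks of the stretch were also wider, with a median of 1180.5 bp against 401.5 bp in the rest of the arm.

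The 12 runs were not alike in the replicates. Only the run of 40621 bp from 17217989 to 17258609, which coincides with the widest site, was over 90% covered in both, with 99.7% in replicate 1 and 99.3% in replicate 2. The runs from 17044419 to 17119004 (74586 bp), 17421209 to 17462627 (41419 bp) and 17476433 to 17514879 (38447 bp) held no peak of either replicate, although their highest series-level scores were 46.15, 27.9 and 36.1. Other runs were covered far more by 1 replicate than by the other. The run from 17605868 to 17646009 was covered by 97.7% in replicate 1 and 2.84% in replicate 2, and that from 16833214 to 16876283 by 94.3% and 38.6%. In the opposite sense, the run from 17534292 to 17602752 (68461 bp) was covered by 0% in replicate 1 and 44.2% in replicate 2.

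**Figure D4:**
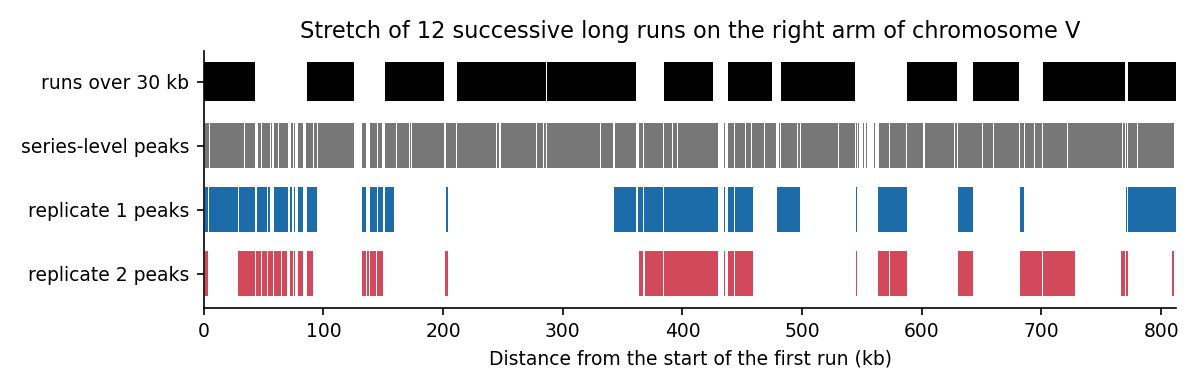
Map of the stretch of 12 successive long runs on the right arm of chromosome V, by distance from the start of the first run in kb (x axis). Bars show, from top to bottom, the runs over 30 kb, the series-level peaks, and the peaks of replicates 1 and 2. Series-level peaks cover 87.8% of the stretch, while the replicate peaks cover 37.8% and 30.2% and leave several runs empty.

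The replicates also matched each other less in this stretch than elsewhere on the arm. Of the peak bases there, 62.1% in replicate 1 and 77.8% in replicate 2 were also in a peak of the other, against 90.6% and 87.5% in the rest of the arm. The stretch still held 28 sites with a median width of 5077 bp, 7 of them wider than 10 kb, among them the site ranked first by percentile. Beyond the stretch, the run from 18744402 to 18776675 was covered by 97.4% in each replicate and that from 19896623 to 19928017 by 96.8% and 95.7%, whereas the run from 19296790 to 19328891 (32102 bp) held no replicate peak.

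Peaks seen in a single replicate were mostly weak and narrow, with a few strong exceptions. The 51 peaks of replicate 1 alone were a median 1158 bp wide and had a median score of 94.6, while its 421 shared peaks were 2498 bp wide and scored 556. The 61 peaks of replicate 2 alone were a median 1200 bp wide and scored 111, while its 420 shared peaks were 2660 bp wide and scored 764. All 51 and all 61 overlapped a series-level peak. Of these, 7 in replicate 1 and 5 in replicate 2 scored 1000 or more. The same counts over the whole lists are not given here, so neither is read as a trait of the arm. The strongest in replicate 1 were at 16984433 to 16991913 (7481 bp) and 17757602 to 17771849 (14248 bp), both with a score of 3100, and the strongest in replicate 2 were at 18164999 to 18168884 (3886 bp) with 3117 and at 17554347 to 17561674 (7328 bp) and 17998745 to 18004941 (6197 bp) with 3100 each. Series-level peaks covered 89.7% to 95.6% of these 5.

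Against the rest of its own chromosome, the arm carried far more peaks. In replicates 1 and 2 it had 72.9 and 74.3 peaks per Mb, against 24.7 and 26.3 on the left arm of V over the same length and 11.04 and 11.8 in the centre. The ratio of the right to the left arm was 2.95 and 2.83, a mean of 2.89 ± 0.0853 (SD, n = 2). In covered bases the right arm exceeded the left arm by 21.2 ± 0.385 percentage points (SD, n = 2), with 28.9% ± 0.0674 on the right arm and 7.65% ± 0.317 on the left arm. The difference was far larger than the spread between replicates, but no test was run, because an exact paired test over 2 replicates cannot give a two-sided p below 0.5. Sites of the right arm were also wider, with a median of 3185 bp and 11.1% wider than 10 kb, against 2155 bp and 7.14% on the left arm. The share of sites at 3100 or more in both replicates was 10.2% on the right arm and 10.7% on the left arm. Median scores were 615 and 879 in replicates 1 and 2 on the right arm, against 375 and 525 on the left arm.

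Crowding toward the chromosome end was seen on both arms of V and on other autosome arms. The outer of 2 equal parts held 289 of 371 sites (77.9%) on the right arm and 96 of 140 (68.6%) on the left arm. Peaks covered 45.2% and 46.7% of the outer part of the right arm in replicates 1 and 2 and 12.7% and 10.98% of its inner part. On the left arm they covered 10.2% and 10.6% of the outer part and 4.69% and 5.20% of the inner part. Over the 10 autosome arms, the share of sites in the outer part ran from 52.8% on the right arm of IV to 79.5% on the left arm of IV. It was 58.8% on the left arm of III, so the crowding was not particular to V. None of these differences was tested.

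Among the 10 autosome arms, cut in the same way, the right arm of V ranked 3 by bases in peaks in each replicate and 5 by sites per Mb. The left arms of III and IV, of like coverage, were compared with it. Median site width was 3185 bp on the right arm of V and 3158 bp on the left arm of III. It was 2633 bp on the left arm of IV, and these differences were not tested. Sites wider than 10 kb made up 11.1% on the right arm of V, against 12.5% on the left arm of III and 7.25% on the left arm of IV. The right arm of V was covered less than the left arm of III, by -3.53 ± 0.0685 percentage points (SD, n = 2), with 28.9% on the right arm of V and 32.4% on the left arm of III in each replicate. It was covered more than the left arm of IV, by 4.08 ± 1.39 points, with 28.9% and 28.8% on the right arm of V and 23.9% and 25.7% on the left arm of IV in replicates 1 and 2. The share of sites at 3100 or more in both was 10.2% on the right arm of V, against 23.7% on the left arm of III and 12.7% on the left arm of IV. In the series-level list the order changed, since the right arm of V came first of the 10 with 36.1%. The right arm of I, which ranked 1 by bases in peaks in each replicate, was close behind with 35.4%. The left arm of III had 32.4% and the left arm of IV 22.3%. The series-level list covered 125% of the mean length of the replicates on the right arm of V, 99.96% on the left arm of III and 90.03% on the left arm of IV. Outside the stretch of long runs the lists covered nearly the same length of the right arm of V, as given above.

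**Figure D5:**
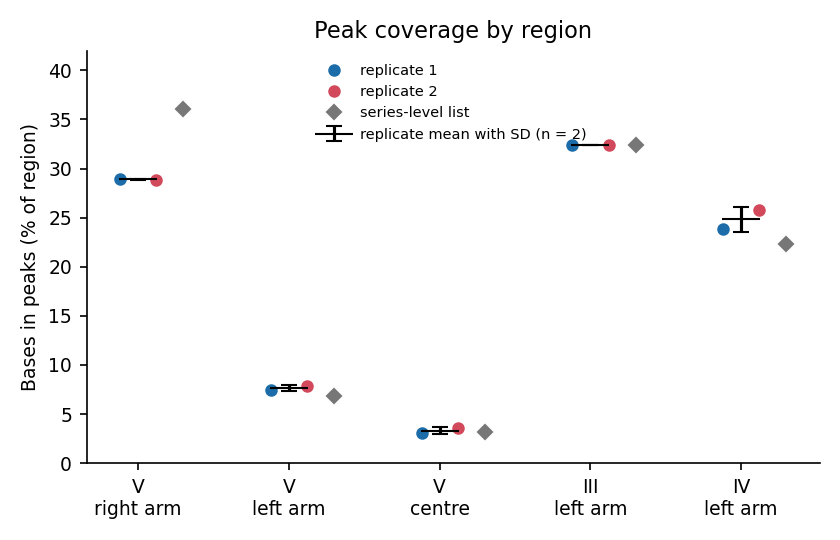
Percent of bases in peaks (y axis) for the right arm, left arm and centre of chromosome V and the left arms of chromosomes III and IV (x axis), with replicates as points, their mean with SD (n = 2) as a bar, and the series-level list as a diamond. The right arm of V lies at 28.9% in the replicates and 36.1% in the series-level list, far above the left arm (7.65%) and the centre (3.32%) of V.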

How the data were processed

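T09A5.8 ChIP-seq was analysed from 3 deposited peak lists, 1 for each of 2 ChIP replicates and 1 for the series. Per the file headers the build was WS220, and the source column of the lists names MACS for the replicates and MACS v2 for the series-level list. How reads were aligned, which thresholds were set, whether input was used and whether replicates were pooled is not given in the sources used here. As deposited by the authors, the score had no stated definition, and it was used only within its own list. Per the labels' protocols, chromatin was fixed with 1% formaldehyde for 10 min, and 250 to 500 bp fragments were amplified for 18 cycles. A list shows where enrichment passed a threshold, so weaker binding is not seen, and MACS and MACS v2 lists differ in caller.

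Sites were connected sets of peaks that overlapped by at least 1 bp. Chromosome lengths were the largest peak ends in any list. Arms were the outer of 3 equal parts without the terminal 500 kb. Named sites were the first 10 by mean percentile of score (ties by width), by width and by series-level score, the 5 widest gaps, the sites at the bounds and the runs over 30 kb. Members and lists were chosen with earlier results of these data known. Values are descriptions with the SD of 2 replicates. Alternatives covered the overlap, a score filter, the interval, single replicates, windows, joining and the series-level list. The interval code was tested on simulated data. The symbol of T09A5.8 came from gene names of assembly WBcel235, whose coordinates were not used. Python 3.11.15, numpy 2.4.6, pandas 2.3.3, scipy 1.17.1 and matplotlib 3.10.9 were used.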

Additional observations from a re-analysis of the deposited data

How the results depend on the processing

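Of 66 alternative values for 10 results, 26 stayed within the spread of the replicates (for counts, within 1.5 times), and 40 moved. The Spearman rho has no replicate spread, so each of its 6 alternatives counted as moved whatever its size. Only the rho and the right to left ratio could have changed direction, and neither did. With the sites as reported, the right to left ratio of sites per Mb was 2.65. A filter that kept the peaks scoring above the median of each list gave 208 sites in place of 371, 21.0% of bases in sites in place of 28.2%, a right to left ratio of sites per Mb of 3.20, a median width of 4632 bp, 16.8% of sites wider than 10 kb, 86.0% of peaks shared in place of 88.3%, a Spearman rho of 0.790 and, for the series-level list, 17.3% of its peaks in neither replicate in place of 28.8%. The filter also shortened the lists, and the part of the shorter lists in these shifts was not tested. The series-level list in place of sites gave 2072 peaks, 36.1% of bases, a ratio of 3.56, a median width of 441.5 bp, 0.869% wider than 10 kb and 87.2% in the densest 500-kb window in place of 52.6%. Requiring an overlap of 50% of the shorter peak gave 28.03% of bases and a rho of 0.857. Keeping the terminal 500 kb gave 28.4% and 0.854, and the last of 4 equal parts of the chromosome gave 35.3%, 0.843 and 11.7% wider than 10 kb. The rho was 0.796 without sites at 3100 and 0.671 over pairs of peaks. The densest window of 250 kb was 59.2% covered. With replicate peaks required to cover 50% of a series-level peak, 30.4% were in neither. Joining series-level peaks across 200 bp left 4 long runs in place of 15, so the number of long runs rests on that setting. Single replicates, whose peaks are not merged into sites, gave 472 to 481 peaks, 28.8% to 28.9% of bases, ratios of 2.83 to 2.95, median widths of 2248 to 2405 bp, 8.73% to 9.32% wider than 10 kb, 50.3% to 56.3% in the densest window and 37.4% to 39.3% of series-level peaks not found. Leaving out the stretch of long runs, chosen after seeing the data, gave 28.02% of bases and a ratio of sites per Mb of 2.80 in place of 2.65. It also gave 9.91% of sites wider than 10 kb and 25.8% of series-level peaks in neither replicate. No paired analysis was possible because only ChIP libraries entered the values, with no second group to pair by replicate number. The lists carry no depth, so its part in weak unshared peaks was not tested.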
